A study of Mus musculus with 7 samples.

Results

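The 129 protein-coding olfactory receptor (Olfr) genes of mouse chromosome 9 were examined for binding of CTCF and of the cohesin subunit Rad21 in liver. They were chosen by symbol alone, as every protein-coding gene of GENCODE vM1 (mouse assembly mm9/NCBIM37) on chromosome 9 whose symbol starts with Olfr, a rule that uses no peak value. The choice was made with earlier results of these data known. The 129 genes are 10.2% of the 1265 protein-coding genes of that chromosome and 129 of 1113 such Olfr genes in the genome. Of the 129, 2 carry a pseudogene symbol (ending in -ps1) but are annotated as protein-coding, and a further 6 Olfr pseudogenes were left out. Each gene span was extended by 20 kb on each side, and overlapping extended spans were merged into 32 windows holding 3.51 Mb of sequence.

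The data are chromatin immunoprecipitation sequencing (ChIP-seq) of livers of male CD-1 mice, strain Crl:CD1(ICR), 8 weeks of age, untreated as far as the labels say. A Millipore antibody to CTCF was used in 4 libraries, and the Abcam antibody Ab992 to Rad21 was used in 3. The lists used here were made from pooled libraries, so no spread between mice can be given for any value, no test between groups was possible, and the intervals below cover counting error only. Liver was assayed in bulk, and a peak list from it does not separate hepatocytes from the other cells of the organ. A peak records binding and does not measure expression of a gene.

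Olfactory receptors are G protein-coupled receptors that bind odorants in the cilia of olfactory sensory neurons, and most are encoded by short genes that lie in tandem clusters. A mature olfactory neuron generally expresses a single allele of a single receptor gene, and the clusters are silent in most other tissues. CTCF is a zinc finger protein that binds a directional DNA motif, and cohesin is a ring-shaped complex that extrudes chromatin loops and is held up at bound CTCF. Sites with both proteins are termed CAC sites, cohesin sites without CTCF are termed CNC sites, and CAC sites with motifs facing each other often mark the ends of topologically associating domains (TADs).

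The genes lay in 2 clusters, defined as runs of Olfr genes at most 500 kb apart, which were separated by 17.4 Mb. Cluster 1 held 35 genes over 1.58 Mb of chromosome 9, from Olfr24 at position 18559100 to Olfr18, which ends at 20140538. Cluster 2 held 94 genes over 2.48 Mb, from Olfr151 at 37518857 to Olfr986, which ends at 39995679. The median gene span was 966 bp in cluster 1 and 951 bp in cluster 2, and the median gap between neighbouring genes was 34.5 and 21.4 kb. Of all members, 86 were on the + strand and 43 on the − strand. The clusters also enclosed a few genes of other kinds, namely Zfp317 in cluster 1 and Vwa5a, AW551984, 1700001J11Rik, Tmem225 and Gm4893 in cluster 2.

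The sequences that carried CTCF in the windows are shown first, because 8 peaks made up the whole CTCF signal of the 129 genes in these lists. The strongest lay in cluster 2 between genes, 12897 bp downstream of Olfr878. The next stretch, read on the + strand at chr9:37740164-37740463 (mm9), is centred on its summit, and capitals mark the best match to the CTCF motif, which is on the − strand.
Olfr878 site: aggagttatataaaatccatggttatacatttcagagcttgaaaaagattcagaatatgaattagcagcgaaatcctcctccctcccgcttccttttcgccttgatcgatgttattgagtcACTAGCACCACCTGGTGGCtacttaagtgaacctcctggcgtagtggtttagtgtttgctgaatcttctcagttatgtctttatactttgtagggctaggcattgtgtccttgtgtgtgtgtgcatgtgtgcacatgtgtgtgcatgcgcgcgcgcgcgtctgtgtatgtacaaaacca
The site closest to an Olfr gene among those with both proteins lay 1362 bp downstream of Olfr957. Its 300 bases at chr9:39316567-39316866 are given on the + strand with the motif match, also on the + strand, in capitals.
Olfr957 site: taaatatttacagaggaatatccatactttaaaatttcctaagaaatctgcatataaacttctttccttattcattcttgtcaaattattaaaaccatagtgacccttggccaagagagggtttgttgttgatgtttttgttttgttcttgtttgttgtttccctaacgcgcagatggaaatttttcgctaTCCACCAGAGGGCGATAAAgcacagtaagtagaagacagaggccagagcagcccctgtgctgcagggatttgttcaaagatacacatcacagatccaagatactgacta

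The motif was learnt from 2000 TAD anchors of the other chromosomes, so that no base of chromosome 9 shaped it, and its 19 positions read NCCANNAGNNGGCNNNNNN where a single base prevails. Matches were sought on both strands. A match was counted from a score of 7.96, which 90% of TAD anchors outside chromosome 9 reached, and of the 8 CTCF peaks in the windows 6 held one. These 6 matches are aligned here along the motif strand with 5 bases on each side and the 19 motif bases in capitals, in the order of the peak scores (2718, 1256, 404, 131, 67 and 55).
Olfr878 site, chr9:37740280-37740308, − strand: aagtaGCCACCAGGTGGTGCTAGTgactc
Olfr986 site, chr9:39999847-39999875, − strand: gccccACCTCCAAGGGGTGCTGGAgcctg
Olfr957 site, chr9:39316753-39316781, + strand: cgctaTCCACCAGAGGGCGATAAAgcaca
Olfr148 site, chr9:39419743-39419771, − strand: tcttgGCCACTGGGTGGCTCTCATgctat
Olfr875 site, chr9:37570309-37570337, + strand: ctgcaGCCAGGAGGGGGTGCTGTTctaca
Olfr881 site, chr9:37806347-37806375, + strand: tcttgTCCACTTGGGGGCATGCTGagcta
The motif scores of these sites were 19.9, 8.91, 18.6, 12.7, 16.1 and 10.4. The share of peaks with a match was 75% in the windows (6 of 8, 95% Wilson interval 40.9 to 92.9%) and 70.4% in the rest of chromosome 9 (3011 of 4275, 69.0 to 71.8%). The first interval, wide with 8 peaks, contains the second.

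CTCF and Rad21 peaks were sparse around the Olfr genes. Of the 129 genes, 11 had a CTCF peak within 20 kb of the gene span (8.53%, 95% Wilson interval 4.83 to 14.6%), against 92.3% of the 1136 other protein-coding genes of chromosome 9. For Rad21 the count was 4 of 129 (3.10%, 1.21 to 7.70%), against 89.4% of the other genes. A site of the authors' class list, which holds CTCF peaks found in at least 2 of their livers, lay within 20 kb of 5 Olfr genes (3.88%, 1.67 to 8.75%), against 90.8%. The remaining 118 Olfr genes had no CTCF peak in that range and 125 had no Rad21 peak. The intervals of the Olfr genes and of the other genes did not overlap for any of the 3 lists. Genes of a cluster share peaks and windows, however, and are not independent of each other. Gene length was not matched either, and a longer span has more room for a peak, so these shares do not measure density.

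None of the 129 Olfr genes had a CTCF or Rad21 peak in its span or within 1 kb of a transcription start. The count of 0 of 129 genes allows a share of up to 2.33%, or 2.89% by the Wilson interval. Both limits treat the genes as independent, which genes of a cluster are not. Among the other genes of chromosome 9, 63.6% had a CTCF peak and 59.0% a Rad21 peak within 1 kb of a start. The gene spans of the members hold only 0.249 Mb of sequence, in which 9.09 CTCF peaks would lie at the density of the rest of the chromosome, and the zones around their starts hold 0.262 Mb, in which 9.57 would lie. At these lengths a count of 0 limits the density to 12.0 and 11.4 CTCF peaks per Mb.

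**Figure D1:**
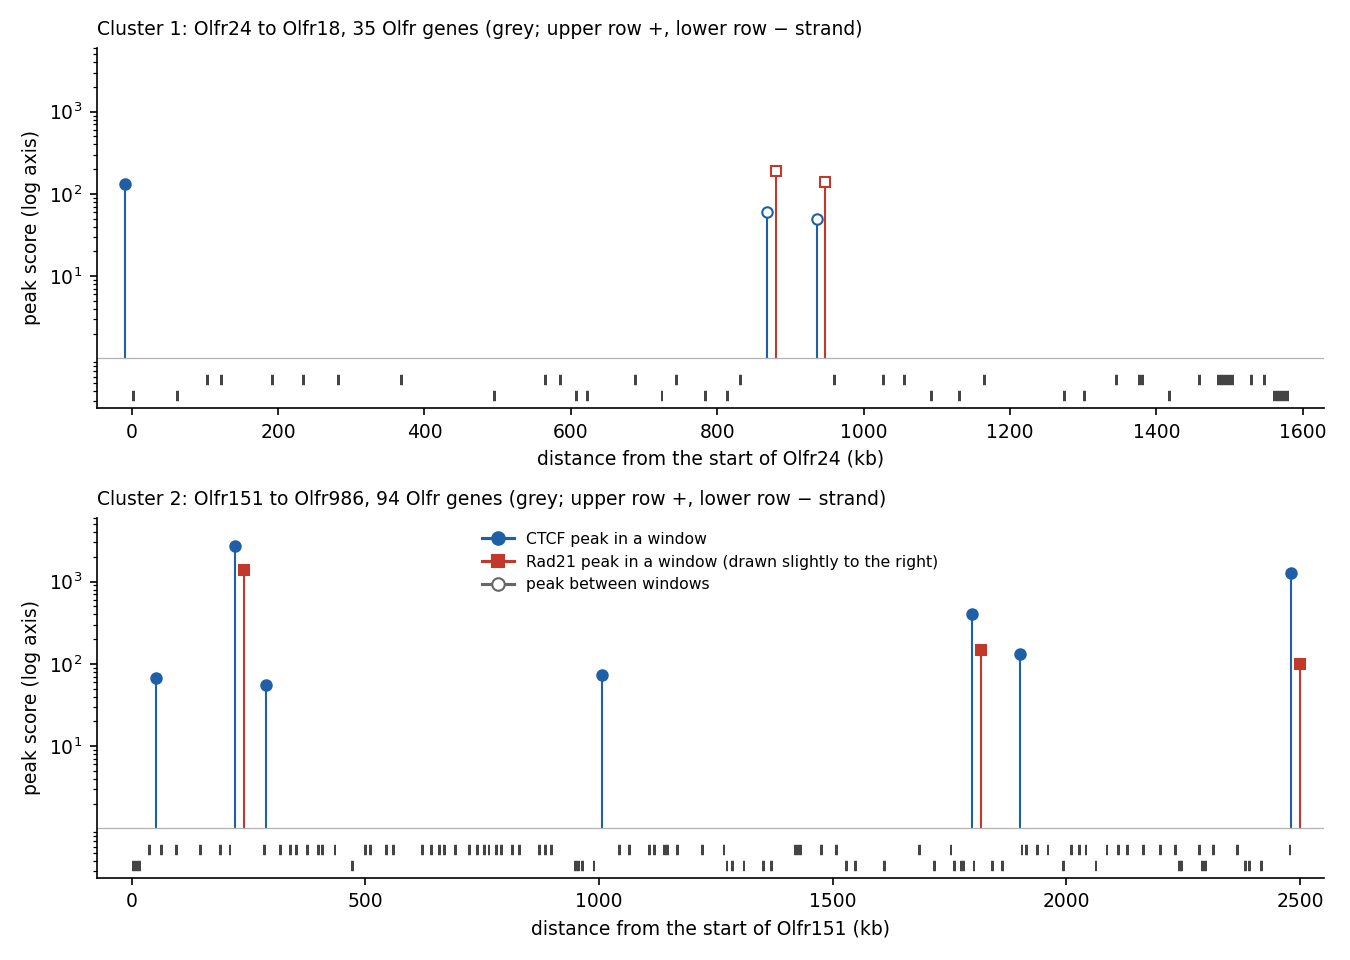
Olfr genes of cluster 1 (top) and cluster 2 (bottom) as grey bars by strand, with the score of each CTCF peak (blue circles) and Rad21 peak (red squares) on a log axis against the distance from the start of the first gene in kb. Open symbols are peaks inside a cluster but outside the windows of 20 kb. Cluster 1 held 1 CTCF peak in a window, score 131, and cluster 2 held 7, of which 3 overlapped a Rad21 peak.

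Measured per length, the windows held 8 CTCF peaks, or 2.28 per Mb (95% exact Poisson interval 0.983 to 4.49). The rest of chromosome 9 held 4275, or 36.5 per Mb (35.4 to 37.6), so that 128 would have lain in windows of this size at the density of the rest. The density in the windows was 0.0624 of that in the rest (0.0269 to 0.123). For Rad21 the windows held 3 peaks, or 0.854 per Mb (0.176 to 2.49), against 32.1 per Mb in the rest, a ratio of 0.0266 (0.00549 to 0.0778). The class list gave 4 sites, or 1.14 per Mb (0.310 to 2.91), against 25.5 per Mb, a ratio of 0.0446 (0.0121 to 0.114). Each interval of a ratio lay below 1.

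The windows of the other protein-coding genes of chromosome 9, extended in the same way, were denser than the rest of the chromosome, with 49.6 CTCF and 43.0 Rad21 peaks per Mb. Against these, CTCF peaks were 21.8 times and Rad21 peaks 50.4 times less dense around Olfr genes. Both clusters were sparse. Cluster 1 windows held 0.835 CTCF peaks per Mb (0.0212 to 4.65) and 0 Rad21 peaks, which allows up to 2.51 per Mb. Cluster 2 windows held 3.02 CTCF (1.21 to 6.22) and 1.29 Rad21 peaks per Mb (0.267 to 3.78). The intervals of the clusters overlapped.

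Other gene families of the chromosome were measured in the same way. The windows of 10 matrix metalloproteinase (Mmp) genes, which encode enzymes that cleave extracellular matrix, held 9.67 CTCF peaks per Mb (2.63 to 24.8). Those of the chemokine receptor genes, G protein-coupled receptors of leukocytes whose genes lie at several places on the chromosome, held 54.0 (37.8 to 74.8), and those of the apolipoprotein genes Apoa1, Apoc3, Apoa4 and Apoa5, which the liver and gut use to build lipoproteins, held 192 (110 to 312). The interval of the Olfr windows overlapped that of the Mmp windows and lay below those of the other families. These families had CTCF densities below and above the 36.5 per Mb of the rest.

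**Figure D2:**
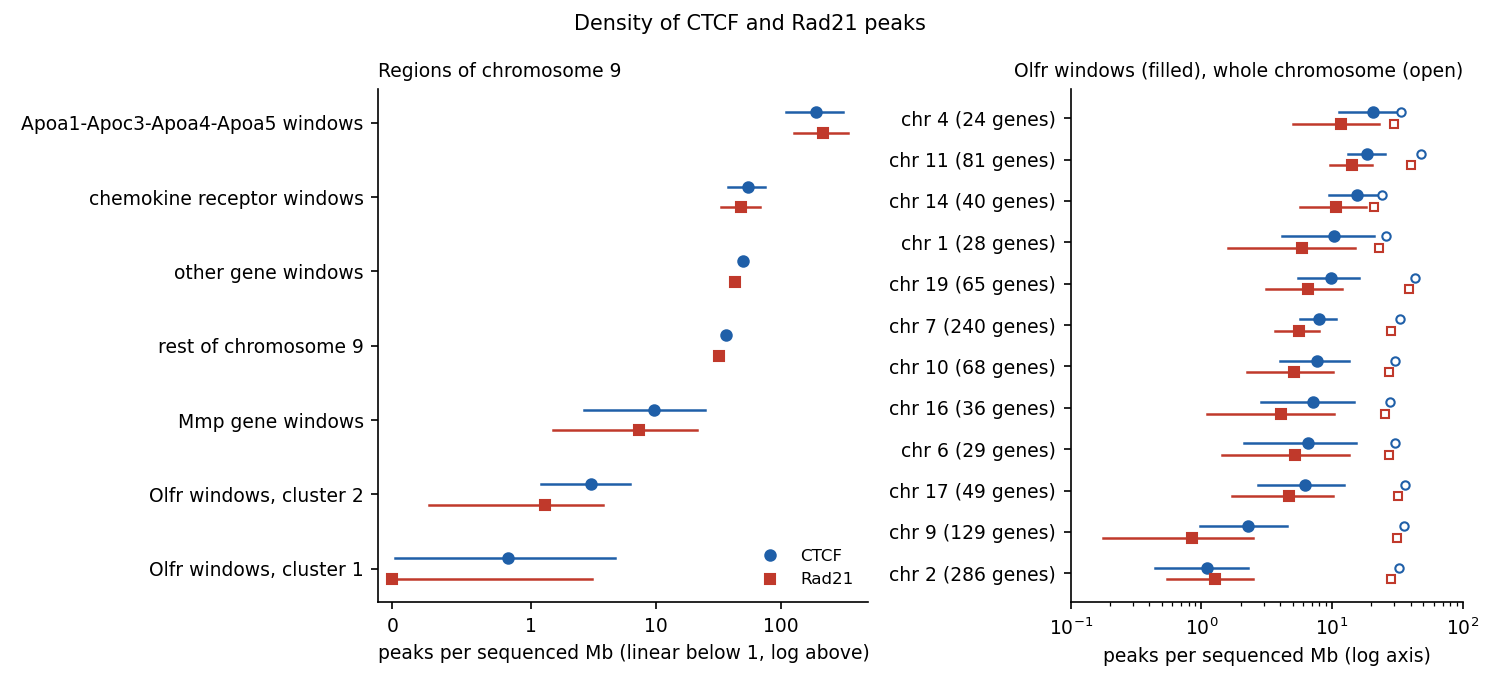
Density of CTCF peaks (blue circles) and Rad21 peaks (red squares) per sequenced Mb, with 95% exact Poisson intervals, in regions of chromosome 9 (left) and in the Olfr windows of the 12 chromosomes with at least 20 Olfr genes (right, where open symbols give the whole chromosome). The Olfr windows of chromosome 9, at 2.28 CTCF peaks per Mb, lie below the whole chromosome at 35.5 and above the Olfr windows of chromosome 2 at 1.10.

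Olfr genes elsewhere in the genome, as a group, had more peaks. Of 984 Olfr genes on other chromosomes, 180 had a CTCF peak within 20 kb (18.3%, 16.0 to 20.8%) and 13.5% had a Rad21 peak (11.5 to 15.8%), and their windows held 8.49 CTCF (7.35 to 9.75) and 6.10 Rad21 peaks per Mb (5.14 to 7.18). These intervals did not overlap those of chromosome 9. Among the 12 chromosomes with at least 20 Olfr genes, chromosome 9 was next to the lowest in CTCF density. Only chromosome 2, with 286 Olfr genes, was lower, at 1.10 CTCF peaks per Mb (0.444 to 2.28), and the interval of chromosome 9 overlapped those of chromosomes 2, 17, 6, 16, 10 and 1, so the place in this order is not firm. The highest density was found on chromosome 4, where 24 Olfr genes lay in windows with 20.5 CTCF peaks per Mb (11.2 to 34.3). For Rad21, chromosome 9 was the lowest of the 12, at 0.854 per Mb, with an interval that overlapped those of the same 6 chromosomes (chromosome 2 at 1.26 per Mb, 0.545 to 2.49).

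Distances to the nearest peak were longer for most Olfr genes than for most other genes, with overlapping ranges. Gene length was not matched here, and a longer span is more likely to hold a peak and so to have a distance of 0. The median distance from an Olfr gene of chromosome 9 to the nearest CTCF peak was 144 kb (quartiles 64 and 249 kb, range 1.26 to 376 kb). The other genes of the chromosome had a median distance of 0, since a CTCF peak lay in the span of 75.5% of them, and only 22 of 1136 (1.94%) were at least as far from CTCF as the median Olfr gene, although the farthest of them, at 529 kb, exceeded every Olfr gene. A distance of over 100 kb was found at 84 Olfr genes (65.1%) and at 31 other genes (2.73%). To the nearest Rad21 peak the median was 249 kb (quartiles 117 and 448 kb, range 1.47 to 764 kb), and 79.1% of Olfr genes but 4.40% of other genes, which reached 902 kb, were over 100 kb away.

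**Figure D3:**
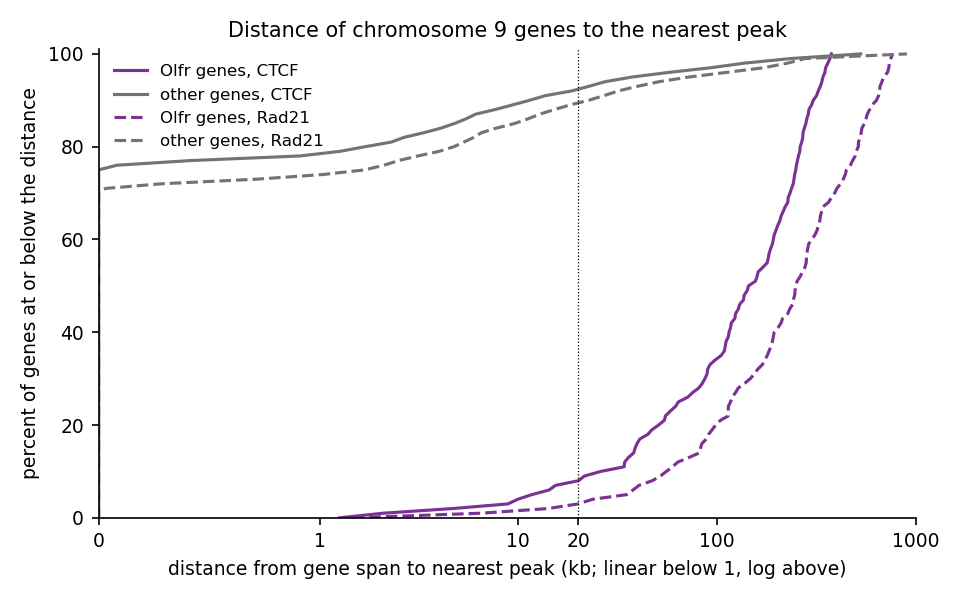
Percent of genes (vertical axis) at or below a given distance in kb (horizontal axis, linear below 1 and log above) from the gene span to the nearest CTCF peak (solid) or Rad21 peak (dashed), for Olfr genes (purple) and the other protein-coding genes of chromosome 9 (grey), with the extension of 20 kb as a dotted line. At 20 kb the Olfr curves stand at 8.53% for CTCF and 3.10% for Rad21, and the other genes at 92.3 and 89.4%.

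The genes farthest from CTCF were Olfr836, Olfr843 and Olfr27. Olfr836 (18925401 to 18926355, + strand) lay 376 kb from the nearest CTCF peak and 500 kb from the nearest Rad21 peak. Olfr843 (19052801 to 19053907, − strand) lay 373 kb from both, and Olfr27 (38935752 to 38952657, + strand) lay 364 kb from both. The first pair belongs to cluster 1 and Olfr27 to cluster 2, and each sits inside a long stretch without a peak. Between neighbouring CTCF peaks of chromosome 9 the median gap was 10.4 kb. The 9 gaps that held Olfr genes had a median of 580 kb, but a longer gap is more likely to hold a gene of any kind, so no difference is read from these medians. Of the 10 longest gaps of the chromosome, 4 held Olfr genes. The gap with Olfr836 and Olfr843 ran over 877 kb, from 18549534 to 19426572, held 19 Olfr genes and ranked 4 of 4282. The gap with Olfr27 ran over 790 kb, from 38526114 to 39316530, held 25 Olfr genes and ranked 5. The next in cluster 2 covered 719 kb with 32 genes and ranked 8, and the other long gap of cluster 1 covered 684 kb with 16 genes and ranked 9. The longest gap between Rad21 peaks that held Olfr genes ran over 1576 kb, from 37740576 to 39316662, with 58 of the 94 genes of cluster 2. None of these gaps held unsequenced bases.

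The single CTCF peak in the windows of cluster 1 lay before its first gene. It covered 18549221 to 18549533, 9567 bp downstream of Olfr24, which is on the − strand (18559100 to 18560153). Its score was 131, a value that rises with the significance of the peak, its fold over local background was 5.0, and 34 fragments covered its summit. The authors' list classed it as a lone CTCF site, without cohesin. It held no deposited motif, and its best match here scored 5.97, under the limit. It carried the flag for Stag1, an alternative cohesin subunit measured in public data, but not those for Stag2 or for topoisomerase II beta (Top2b). No other peak lay within 20 kb of any of the 35 genes of cluster 1.

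In the middle of cluster 1, 2 further pairs of peaks lay between windows, in the wider interval around Zfp317, a zinc finger gene. The CTCF peaks there scored only 61 and 49, with 24 and 22 fragments at the summit. The overlapping Rad21 peaks had scores of 191 and 140, with 39 and 33 fragments. The first pair lay 36.6 kb from Olfr855 and 18.8 kb from Zfp317, and the second 22.3 kb from Olfr857 and 42.3 kb from Zfp317. Neither CTCF peak was in the class list. Scores of the 2 proteins come from separate lists, pooled from 4 CTCF and 3 Rad21 libraries, and were not put on a common scale.

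The strongest site of cluster 2 was the TAD anchor downstream of Olfr878 (37726133 to 37727197, + strand). Its CTCF peak covered 37740094 to 37740560 between genes, with a score of 2718, a fold of 25.1 and 266 fragments at the summit, and ranked 638 of the 4283 CTCF peaks of chromosome 9. A Rad21 peak of score 1377, fold 19.6 and 148 fragments overlapped it, with summits 27 bp apart, and ranked 382 of 3761. The deposited motif score was 21.3 on the − strand, the strand of the best match found here. The site carried the flags for Stag1, Stag2 and Top2b. It stood out among the peaks of the windows, where the other CTCF scores ran from 55 to 1256.

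The other TAD anchor lay at the far end of cluster 2. It covered 39999655 to 40000488, 3976 bp downstream of the last gene, Olfr986 (39994664 to 39995679, + strand), with its summit in an intron of Zfp202, a zinc finger gene, 269 bp from a start of that gene. CTCF scored 1256 with 166 fragments, and the Rad21 peak scored 99 with 28 fragments, its summit 359 bp away. The deposited motif, on the − strand, scored 11.0. This peak was 834 bp wide and its bases were 67.1% G or C, the highest of the 8 CTCF peaks, against 35.4 to 52.9% at the other 7. It too carried all 3 flags.

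Between these anchors lay the remaining co-bound site, next to Olfr957 (39318368 to 39319303, − strand). It covered 39316531 to 39317006 between genes, with a CTCF score of 404, a fold of 9.29 and 64 fragments, and was classed as another CAC site. Its Rad21 peak scored 148 with 34 fragments, 75 bp from the CTCF summit. The motif scored 20 on the + strand in the deposited list. The site was flagged for Stag1 and Stag2 and not for Top2b. The same peak was also within 20 kb of Olfr44, at 14958 bp.

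The other 4 CTCF peaks of cluster 2 had no Rad21 peak and were absent from the class list. A peak of score 131 with 34 fragments lay 1263 bp upstream of Olfr148 (39421129 to 39422145, + strand), which made Olfr148 the member nearest to any CTCF peak, and it was also 10824 bp from Olfr960. A peak of score 67 with 25 fragments lay 9819 bp upstream of Olfr875 and also within 20 kb of Olfr874. A peak of score 55 with 23 fragments lay 5221 bp downstream of Olfr881. A peak of score 74 with 26 fragments lay 19919 bp from Olfr919, at the edge of its window, and its summit was in an intron of Vwa5a, 128 bp from a start of that gene. Of the 8 CTCF summits, 6 were intergenic, and the remaining pair lay close to the starts of Vwa5a and Zfp202, which are no olfactory receptors.

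Strength was compared with the rest of chromosome 9. The CTCF peaks of the windows had a median score of 131 (quartiles 72.2 and 617), against 334 for the 4275 peaks of the rest, of which 31.6% scored 131 or lower. A randomly drawn peak of the windows exceeded one drawn from the rest with a probability of 0.390 by score, 0.452 by fold and 0.341 by summit fragments, ties counting for both sides alike (this probability, the AUC, is 0.5 for equal lists). The 3 Rad21 peaks had scores of 99, 148 and 1377, against a median of 159 in the rest, with an AUC of 0.575 by score, 0.672 by fold and 0.461 by summit fragments, so that its direction depended on the measure. With 8 and 3 peaks these values describe the lists, and no difference in strength is drawn from them. Peaks of the windows stood on a low local background, which was at the lowest value of the CTCF list, 5.99 fragments (within 0.005), at 6 of the 8 peaks and at 25.9% of the peaks of the rest.

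**Figure D4:**
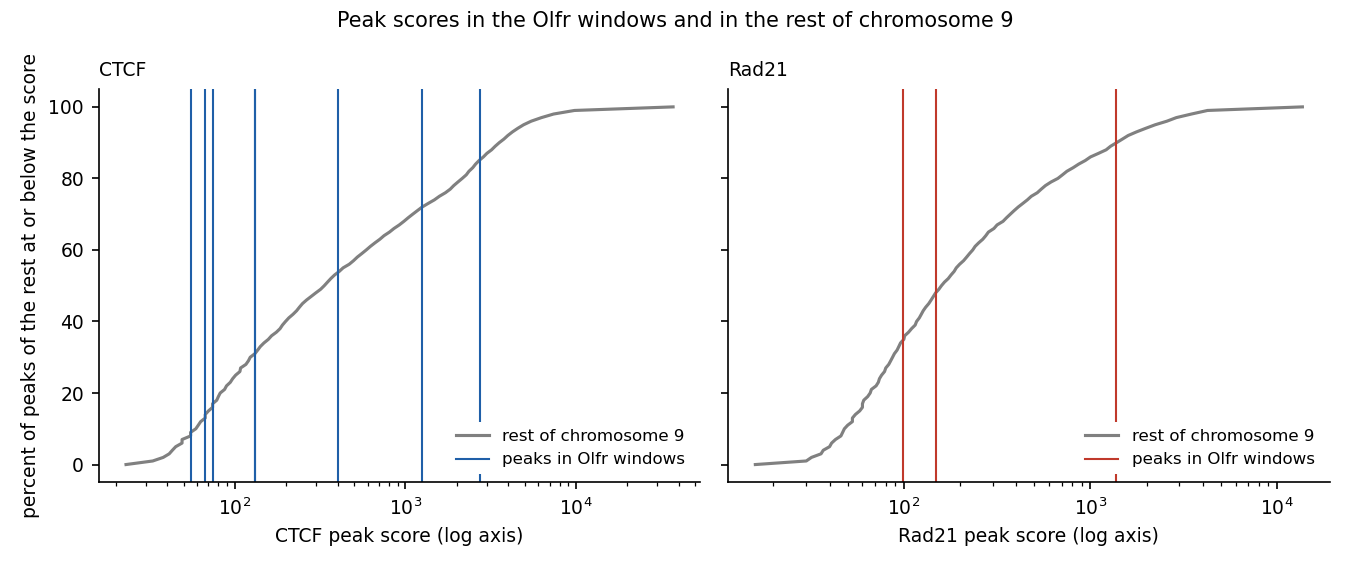
Cumulative percent of the CTCF (left) and Rad21 (right) peaks of the rest of chromosome 9 (grey) at or below a peak score on a log axis, with each peak of the Olfr windows as a vertical line. The 8 CTCF peaks range from 55 to 2718, with 2 at 131 that share a line, and the 3 Rad21 peaks from 99 to 1377.

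Co-binding and class could be counted for few sites. Rad21 was found at 3 of the 8 CTCF peaks (37.5%, 13.7 to 69.4%) and at 67.6% of those in the rest (66.2 to 69.0%), and these intervals overlapped. All 3 Rad21 peaks overlapped CTCF by at least 1 bp, so the windows held 0 CNC sites by this rule. With summits within 100 bp or a reciprocal overlap of 50%, 33.3% of Rad21 peaks lacked CTCF. The count of 0 allows up to 0.854 CNC sites per Mb, while the rest held 7.10 per Mb (6.62 to 7.60). By share, CNC sites made up 0 of the 3 Rad21 peaks (0 to 56.1%), an interval that contains the 22.1% of the rest. The 4 classed sites were 2 TAD anchors, 1 other CAC site and 1 lone CTCF site. Intra-TAD anchors numbered 0, which allows up to 0.854 per Mb, against 4.75 per Mb in the rest (4.37 to 5.16). Their share of classed sites was 0 of 4 (0 to 49.0%), an interval that contains the 18.6% of the rest. TAD anchors reached 0.569 per Mb (0.0689 to 2.06) against 2.87 (2.57 to 3.19). The share of TAD anchors among classed sites, 50%, rests on 4 sites (interval 15 to 85%), next to 11.2% of 2993 in the rest. Class was assigned by the authors from overlap with a cohesin peak, which separates CAC from lone CTCF sites, and from motif strand, strength and distance to TAD boundaries, and intra-TAD loops without a gene start of a protein-coding or liver-expressed non-coding gene were dropped by them.

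Anchors beyond the ends of the clusters were also located. Before cluster 2, a TAD anchor on the + strand at 37497528 to 37498136 lay 20.7 kb from Olfr151, just outside its window, with a score of 1240 and a deposited motif score of 22.9. Together with the − strand anchor 3.98 kb beyond Olfr986, it flanked all 94 genes, with motifs that face each other. The strand of the Olfr986 anchor rests on a deposited motif score of 11.0. Its best match found here scored 8.91 and lay away from the summit. The stronger anchor near Olfr878, also on the − strand, lay between the flanking anchors. It is the first − strand TAD anchor of the windows that the + strand anchor faces. Cluster 1 had no anchor at short range before its first gene. The nearest anchor before Olfr24 was a TAD anchor on the − strand 2874 kb away. The nearest anchor after Olfr18 is not reported here, so the anchors around the clusters are not compared. The nearest CTCF peak after Olfr18 lay 38.7 kb away in an intron of Zfp560.

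Outside the clusters the density of peaks was higher. Beyond the extended ends of cluster 1, CTCF peaks numbered 15 per Mb (3.09 to 43.8) in the first 100 kb on both sides together, 40 (17.3 to 78.8) from 100 to 200 kb, and 55.0 (41.4 to 71.6) from 500 to 1000 kb. Around cluster 2 they numbered 40 (17.3 to 78.8) in the first 100 kb and 47.0 (34.5 to 62.5) from 500 to 1000 kb. The windows of both clusters held at most 3.02 per Mb, and the intervals of cluster 2 and of its first 100 kb of flank did not overlap, whereas those of cluster 1 did (0.0212 to 4.65 in its windows).

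Sequence composition differed as well. The windows were 37.7% G or C with 5.05 CpG dinucleotides per kb, against 42.9% and 8.96 in the rest of the chromosome. Reads that did not map to a unique position were not used by the authors. Since members of a gene family resemble each other, the share of 50-base words that occur only a single time in the genome was measured at every 10 bases, and it was 84.8% in the windows and 92.0% in the rest, with 81.3% in cluster 1 and 86.6% in cluster 2. Per uniquely mappable Mb the windows held 2.69 CTCF and 1.01 Rad21 peaks, against 39.7 and 34.9 in the rest, so that the ratios were 0.0677 and 0.0289. Around gene starts 94.4% of words were unique. In the 8 CTCF peaks, extended by 150 bases, this share was 97.4 to 100%.

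The windows held fewer CTCF motif matches. They had 145 matches per Mb over the limit, against 331 in the rest, a ratio of 0.438, and 3.70 per Mb over a stricter limit of 16.9, the median of TAD anchors (1.97 to 6.33), against 29.5 (28.5 to 30.5). Matches were also in a CTCF peak less often. Of 509 matches in the windows 9 lay in a CTCF peak (1.77%, 0.933 to 3.33%), against 9.74% of 38764 in the rest (9.44 to 10%). Among matches with at least 80% unique words within 150 bases, the shares were 2.61% (1.38 to 4.88%) and 11.0% (10.7 to 11.4%). Over the stricter limit 2 of 13 matches were in a peak (15.4%, 4.33 to 42.2%), against 38.8% (37.2 to 40.4%), and these intervals overlapped. The part of motif number and base composition in the number of peaks was not tested.

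**Figure D5:**
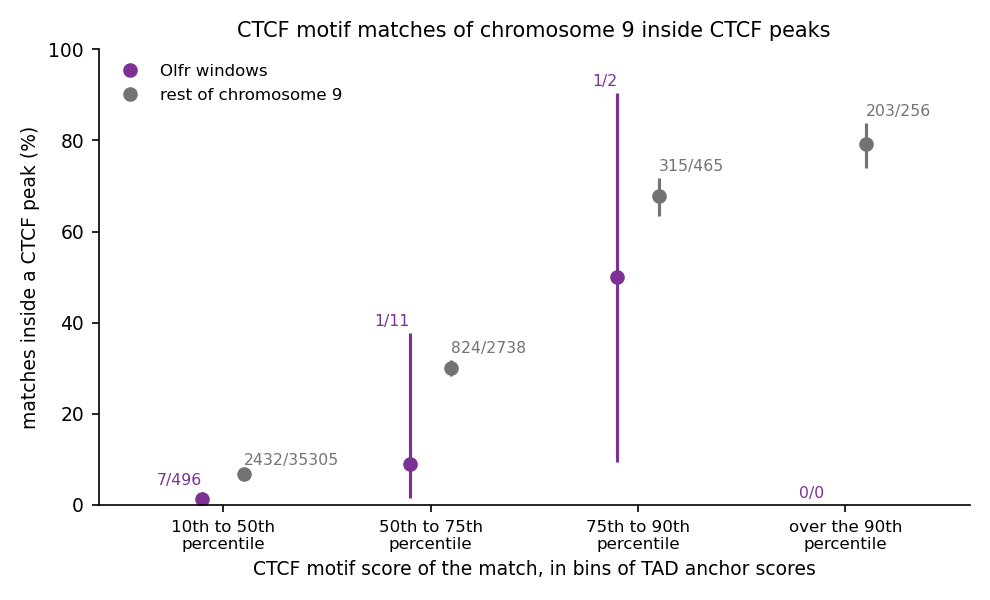
Percent of CTCF motif matches that lie inside a CTCF peak, with 95% Wilson intervals, in bins of motif score taken from TAD anchors outside chromosome 9, for the Olfr windows (purple) and the rest of chromosome 9 (grey). The numbers give matches in a peak over all matches. In the lowest bin 7 of 496 matches of the windows lie in a peak, against 2432 of 35305, and the highest bin holds 0 matches of the windows.

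Some strong matches in the windows had no CTCF peak. The 6 of highest score are given along the motif strand with the 19 motif bases in capitals, to compare with those in peaks above. They lay 339 bp (Olfr905) to 19528 bp (Olfr982) from the nearest Olfr gene.
Near Olfr982, chr9:39862331-39862359, + strand: tggaaGCCAGAAGAGGGCACTGAAtcccc
Near Olfr905, chr9:38281600-38281628, + strand: cagagGCCAGAAGAGGGCATTAGAaacac
Near Olfr972, chr9:39692690-39692718, − strand: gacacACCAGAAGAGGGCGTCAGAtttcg
Near Olfr984, chr9:39915399-39915427, + strand: ggaatACCAGGAGAGGGCACCCTCtcagg
Near Olfr44, chr9:39290096-39290124, − strand: gacacGCCAGAAGAGGGCATTAGGtctca
Near Olfr850, chr9:19266094-19266122, − strand: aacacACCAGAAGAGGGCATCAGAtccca
Their motif scores were 20.3, 18.5, 18, 17.8, 17.8 and 17.6, all above those of 4 of the 6 best matches in CTCF peaks. Of those 6, the match of the Olfr986 site lay inside its wide peak but away from the summit at 40000183, so that being in a peak does not show that CTCF bound these letters. The match near Olfr982, 19528 bp from the gene and 137 kb from the nearest CTCF peak, scored higher than any of those 6, and of the 497 matches in the rest of the chromosome that scored as high or higher 71.2% lay in a CTCF peak. At or above the scores of the other matches without a peak, this share was 69.4, 57.4, 57.1, 56.8 and 42.9%, in the order given. Only 73.3% of the words around the Olfr982 match were unique, whereas around the match 339 bp from Olfr905 all were. The match near Olfr972 had 40% unique words around it, and that near Olfr44 had all unique. A match is a description of letters and not a site of binding, and a site with fewer fragments than the weakest listed peaks (17 for CTCF on this chromosome) would not appear in the list.

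Genes that olfactory neurons use to signal were counted in the same way. Of 21 genes of olfactory signalling and of receptor choice, all on other chromosomes, 21 had a CTCF peak and 20 a Rad21 peak within 20 kb, and 11 had a CTCF peak within 1 kb of a start. These counts are set beside 92.3, 89.4 and 63.6% of the other genes of chromosome 9, and nothing particular to the list is read from them. The list includes Adcy3, the adenylate cyclase that acts downstream of the receptors, with 3 CTCF peaks and 1 Rad21 peak, and Lhx2 and its cofactor Ldb1, which act at enhancers of Olfr genes, with 4 and 7 CTCF peaks. Rtp2, which helps receptors reach the membrane, was the exception with no Rad21 peak. As a check of the tissue, 11 of 12 hepatocyte marker genes had a CNC site within 20 kb, whereas 0 of 5 markers of olfactory sensory neurons and 1 of 4 leukocyte markers did. Of the 21 genes of olfactory signalling, which hold 3 of these 5 neuron markers (Omp, Cnga2 and Stoml3), 9 had a CNC site, so the count of 0 did not extend to that list. Among Olfr genes of chromosome 9 the count was 0 of 129 and among its other genes 451 of 1136.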

How the data were processed

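ChIP-seq peak lists of male mouse liver were analysed, made from 4 CTCF and 3 Rad21 libraries. Per the study's methods, the authors pooled the raw reads of each factor, mapped them to mm9 with Bowtie2, kept uniquely mapped reads and called peaks with MACS2. The deposited score is 10 times the −log10 q-value. The deposited fold is a ratio of summit fragments to local background, each with a pseudocount of 1, and the deposited −log10 p column gives the Poisson probability of the summit. The deposited class list adds a class, a motif score and flags, whose order follows the study's description. The labels and the methods give different catalogue numbers for the CTCF antibody.

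Summit fragments and background were recovered together from fold and −log10 p (within 0.01 at all 4283 CTCF and 3761 Rad21 peaks of chromosome 9). All 22 chromosome names matched NCBIM37 and 0 peaks passed a chromosome end. A peak counted as inside, or as co-bound, from 1 shared bp. A peak across a window's edge counted in the window only. Densities use sequenced bases. Shares carry 95% Wilson and densities 95% exact Poisson intervals, and the limit of a count of 0 uses 3 counts. No p-value was computed, since the pooled lists hold no replicates and peaks or genes of a cluster are not replicates. Functions were tested on simulated data. Named genes are the ends of each cluster, genes nearest the strongest peaks, and those farthest from CTCF. Other genes near a peak or a strong match were named after their values were seen. Members and gene lists were chosen with earlier results of these data known. The peak lists hold no depth per library, and none was computed here. Figures were drawn with Matplotlib 3.10.9, unique words were counted with Numba 0.67.0, and tables were handled with pandas 2.3.3 and NumPy 2.4.6 under Python 3.11.15, with intervals from SciPy 1.17.1. The nearest anchor beyond the last gene of cluster 1 is not reported here.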

Additional observations from a re-analysis of the deposited data

How the results depend on the processing

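Of 120 values recomputed under other settings for 23 results, 94 were counted as inside the counting interval of the reported value and 26 were not. The 94 include the AUC values, for which no interval is given here. All 30 density ratios stayed under 1, with a highest value of 0.0910 for CTCF with windows of 50 kb, where Rad21 density rose to 1.90 per Mb (ratio 0.0591) and the co-bound share of CTCF peaks to 57.1%, and all 15 differences in the share of genes with a peak stayed below 0. With the gene span alone, every density, ratio and share of genes fell to 0 and the differences were −75.5 points for CTCF, −70.5 for Rad21 and −69.7 for classed sites; shares of peaks, strength and class makeup then have no value. Without cluster 2, CTCF density was 0.835 per Mb (ratio 0.0229) and Rad21 density 0 (ratio 0). The share of genes with a CTCF peak was 4.65% at 10 kb and 20.2% at 50 kb, where the difference was −75.4 points, and that with a Rad21 peak was 9.30% at 50 kb. Against Olfr genes of other chromosomes the differences shrank to −9.77, −10.4 and −11.5 points. The stricter motif limit gave a ratio of matches of 0.125 instead of 0.438, a share in CTCF peaks of 15.4%, and a difference to the rest of −23.4 instead of −7.97 points. The cause was not tested. Strength stayed below 0.5 for CTCF (0.313, from the 1 peak left without cluster 2, to 0.452) but ran from 0.413 to 0.672 for Rad21, with 0.413 from the 2 peaks left at 10 kb and no value without cluster 2. With summits within 100 bp or a reciprocal overlap of 50%, 25% of CTCF peaks were co-bound and 33.3% of Rad21 peaks lacked CTCF. No paired analysis was possible because the pooled lists hold no value per library, and for the same reason no library could be left out.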
